A study of Mus musculus with 6 samples.

Results

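The mitosis genes are a set of 42 genes whose products drive or carry out cell division, from the kinase Cdk1 to the proteins that cut the daughter cells apart. They were chosen by name and function, and each was read by the array feature that carries its symbol alone, taking the brightest where a gene has several. This gave a value for 41 of the 42 genes, among 19938 genes tested. Ccnb1, the main cyclin partner of Cdk1, has no feature that carries its symbol alone and so has no array value here. It enters only the promoter search.

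The samples are sorted cells of the mouse calvarial suture, the fibrous joint between skull bones. All mice carried Axin2rtTA, in which Axin2 control drives rtTA, an activator that works only with doxycycline, and TRE-H2BGFP, a histone and GFP fusion that rtTA switches on, on a mixed background of C57BL/6J, CD-1 and B6CBAF2. All received Doxycycline from postnatal day 25 to 28 and were collected at postnatal day 28, so the groups differ by the GFP gate, which the study describes as GFPhi for the first. There were 3 Axin2+/GFP+ samples and 3 Axin2-/GFP- samples, 1 array each and 6 to 8 pooled mice per sample. The study's question was whether the Axin2-expressing cells of the suture are the slowly dividing stem cells of this tissue, and these genes bear on the dividing state of the sorted RNA.

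Cells entering mitosis activate the kinase Cdk1 with its cyclins, condense their chromosomes, attach them to spindle microtubules at kinetochores, and wait at the spindle assembly checkpoint until every chromosome is attached. The anaphase-promoting complex (APC/C) then marks cyclins and other proteins for destruction, and the cell divides. Most genes of this machinery are transcribed late in the cell cycle, held off in resting cells by the DREAM complex and switched on by MuvB with B-Myb and FoxM1, so their RNA is widely read as a measure of proliferation in a tissue.

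Markers of blood cells were measured beside those of skeletal cells, and they differed between the sorted populations. B-lineage genes were lower in Axin2+/GFP+ samples in 14 of 15 cases, and their summed level on the linear scale was 126 to 138, against 2020 to 2797 in Axin2-/GFP- samples. Of 16 neutrophil and granulocyte progenitor markers 13 were higher, with sums of 20325 to 22519 against 2896 to 9137. Olfactory and vomeronasal receptor genes serve here as a measure of array background. In Axin2+/GFP+ samples 8 of the 15 B-lineage markers lay above 95% of these receptor genes, and in Axin2-/GFP- samples all 15 did. All 16 neutrophil markers lay above that level in Axin2+/GFP+ samples and 15 in Axin2-/GFP- samples. Of 16 skeletal mesenchyme markers 4 were higher and 0 lower in limma, with sums of 2705 to 3837 against 895 to 1295. Markers of other cells were counted too, beside 11.4% of all genes that were lower and 4.64% that were higher. Of 7 erythroid markers 2 were lower and 1 higher, of 10 macrophage and monocyte markers 2 were lower, of 8 T and NK cell markers 1, of 7 osteoclast markers 0 and of 7 endothelial markers 1. Progenitors of B cells and of granulocytes divide, and the part of these cells in the values of the mitosis genes was not tested. In RNA from whole sorted pools, fewer dividing cells and less of an RNA per dividing cell cannot be told apart.

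Of the 41 mitosis genes, 5 were lower in Axin2+/GFP+ cells at an adjusted p under 0.05 in limma, or 12.2%, against 11.4% of all genes tested. None was higher, against 4.64% of all genes, and at an unadjusted p under 0.05 limma counted 12 lower and 0 higher, while the t-test of the study's methods gave 1 lower and 0 higher after adjustment. The median log2 change of the set was -0.24, with quartiles of -0.74 and 0.10, beside a median of 0.14 over all genes. The sign of the set's median was positive after quantile normalization (0.11) and cyclic loess (0.15), so its direction depends on how the arrays are scaled. In 11 mitosis genes, or 26.8%, every Axin2+/GFP+ sample lay below every Axin2-/GFP- sample, against 17.8% of all genes. The reverse was found in 0, against 23.1% of all genes. The share called is thus close to that of the whole array. The shares without overlap are over genes of every brightness. Genes with a mean log2 value under 3, where 4 mitosis genes lie, had a median change of 0.25. Those of 3 to 5 and 5 to 7 had -0.19 and -0.57. Shares without overlap at like brightness were not counted.

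The 5 genes that fell act at the chromosome, the kinetochore and the spindle. They are Bub1b and Cenpa, which fell by more than 1 log2 unit, and Ncaph, Kif15 and Ncapd2, which fell by less.

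Bub1b encodes BubR1, the checkpoint protein that holds back the APC/C until chromosomes are attached. Its log2 values were 2.92, 3.17 and 3.56 in Axin2+/GFP+ samples and 4.37, 4.04 and 4.36 in Axin2-/GFP- samples. The highest Axin2+/GFP+ sample lay clearly below the lowest Axin2-/GFP- sample. The log2 change was -1.04 ± 0.21 (standard error), with an adjusted p of 0.0128 in limma and a fold of 2.06. This was the only mitosis gene called lower under every scaling tried, with -0.83 under quantile normalization and -0.84 under cyclic loess. The gene no longer passed without Axin2-/GFP- replicate 1 (-0.99) or 3 (-0.99), nor in the methods' t-test (adjusted p = 0.0829).

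Cenpa encodes the histone H3 variant that marks the centromere. Its log2 values were 4.70, 4.79 and 4.23 in Axin2+/GFP+ samples and 5.53, 5.88 and 5.38 in Axin2-/GFP- samples, with a gap between the groups wider than the range within either. The log2 change was -1.02 ± 0.22 (standard error), with an adjusted p of 0.0160 in limma and a fold of 2.03. The call ended without Axin2-/GFP- replicate 1 (-1.05) or 2 (-0.88), in the t-test (adjusted p = 0.0918), and after quantile normalization (-0.46) or cyclic loess (-0.48).

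Ncaph and Ncapd2 are the kleisin and a HEAT-repeat subunit of condensin I, the ring that compacts mitotic chromosomes. Ncaph read 4.03, 3.79 and 3.91 in Axin2+/GFP+ samples and 4.58, 4.69 and 4.74 in Axin2-/GFP- samples on the log2 scale. Both groups were tight, with SDs of 0.12 and 0.08, and Ncaph was the single mitosis gene that also passed the t-test (adjusted p = 0.0396). Its log2 change was -0.76 ± 0.16 (standard error), with an adjusted p of 0.0162 in limma. The call ended without Axin2-/GFP- replicate 2 (-0.75) or 3 (-0.73), and after quantile normalization (-0.33) or cyclic loess (-0.37). Ncapd2 read 4.72, 5.01 and 5.42 in Axin2+/GFP+ samples and 5.70, 5.85 and 5.80 in Axin2-/GFP- samples. Its groups did not overlap either, and the change was -0.74 ± 0.21 (standard error), with an adjusted p of 0.0445 in limma. Kif15 is a kinesin that can help keep the spindle poles apart. It read 3.35, 3.72 and 4.21 in Axin2+/GFP+ samples and 4.61, 4.88 and 4.44 in Axin2-/GFP- samples, a change of -0.88 ± 0.24 (standard error), with an adjusted p of 0.0421 in limma.

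The calls of Ncapd2 and Kif15 lie close to the threshold. Both held without Axin2+/GFP+ replicate 3 and ended without any other sample. The log2 change of Kif15 was -0.68 and -0.86 without Axin2+/GFP+ replicates 1 and 2, and -0.90, -0.77 and -0.99 without Axin2-/GFP- replicates 1, 2 and 3. That of Ncapd2 was -0.57 and -0.72 without Axin2+/GFP+ replicates 1 and 2, and -0.78, -0.70 and -0.73 without Axin2-/GFP- replicates 1, 2 and 3. Both calls also ended under limma with a trend, in the t-test, and after quantile normalization or cyclic loess, where Kif15 changed by -0.51 and -0.52 and Ncapd2 by -0.16 and -0.17.

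**Figure D1:**
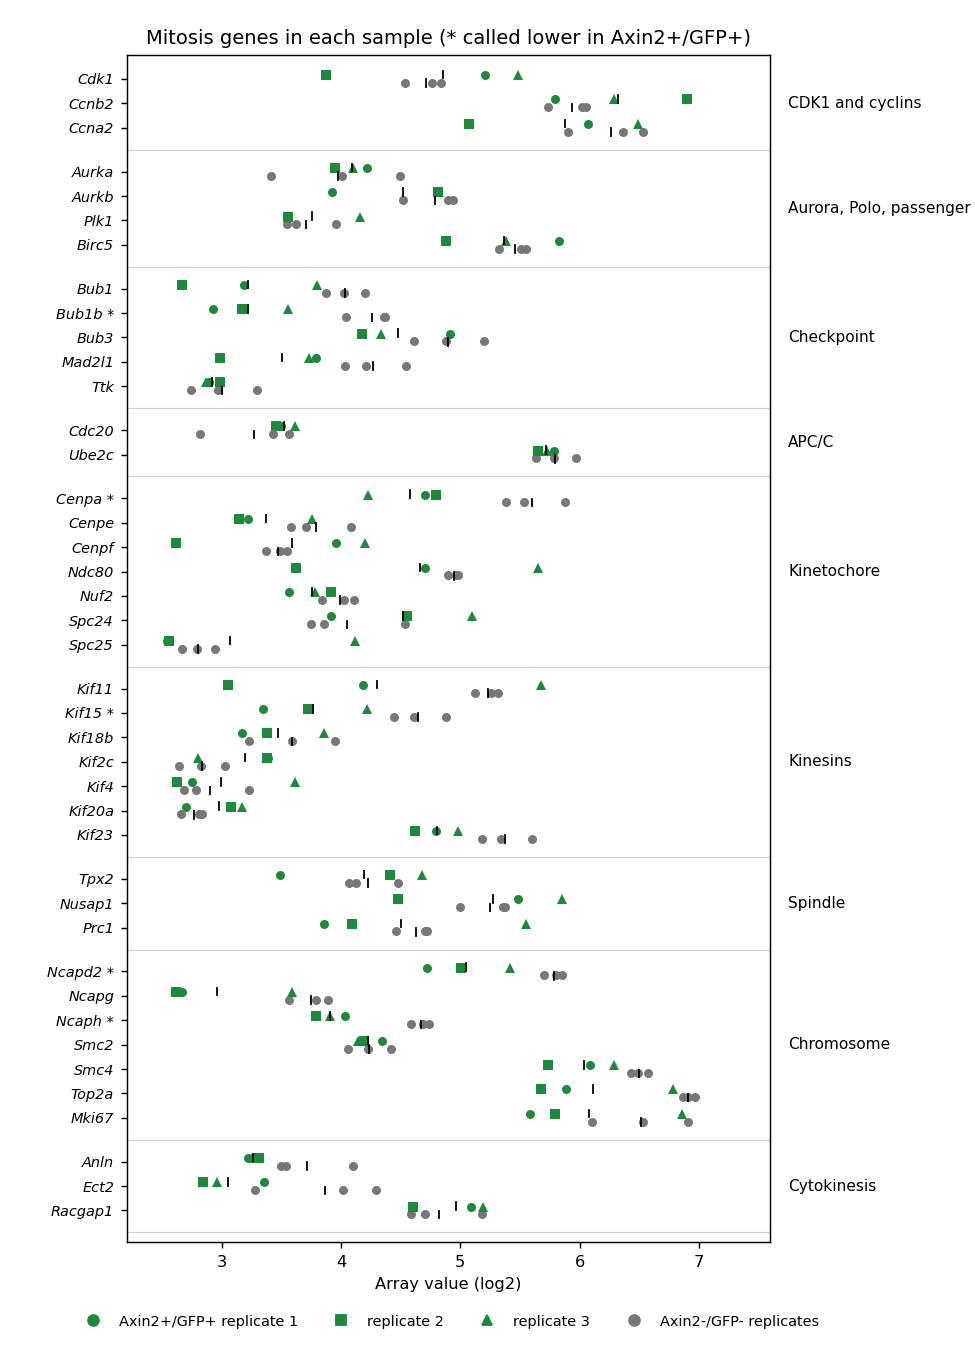
Array values (log2, horizontal axis) of the 41 mitosis genes, grouped by role, with 1 point per sample, green for Axin2+/GFP+ and grey for Axin2-/GFP-, a black tick at each group mean and a star at the 5 genes called lower. Green triangles, Axin2+/GFP+ replicate 3, lie to the right of the other green points in 27 genes.

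Promoters of genes expressed late in the cell cycle often carry a cell cycle gene homology region (CHR), through which the DREAM and MuvB complexes bind, and CCAAT boxes, the sites of NF-Y. E2F factors bind a further motif. The stretches below run from 100 bases before to 50 after the annotated start and are taken from RefSeq on GRCm38.p6, 5′ to 3′ on the strand of the gene. Capitals mark the letters TTTGAA for a CHR, the letters CCAAT for a CCAAT box and TTTGGCGC for E2F, each on either strand. The search also took TTCGAA as a CHR and the letters TTTCGCGC as an E2F motif. The first 5 lines are the genes that fell.

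Bub1b (chr2:118598111-118598260, plus strand): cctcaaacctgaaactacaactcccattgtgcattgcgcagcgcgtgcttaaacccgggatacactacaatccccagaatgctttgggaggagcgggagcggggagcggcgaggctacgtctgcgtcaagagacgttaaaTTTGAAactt
Cenpa (chr5:30666786-30666935, plus strand): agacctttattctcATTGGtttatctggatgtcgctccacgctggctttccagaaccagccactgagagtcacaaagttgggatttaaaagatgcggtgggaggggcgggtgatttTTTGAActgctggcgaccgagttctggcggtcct
Kif15 (chr9:122950981-122951130, plus strand): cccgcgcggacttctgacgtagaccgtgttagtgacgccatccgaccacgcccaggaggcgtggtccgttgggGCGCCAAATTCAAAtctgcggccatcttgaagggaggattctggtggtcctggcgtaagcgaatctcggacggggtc
Ncapd2 (chr6:125191537-125191686, minus strand): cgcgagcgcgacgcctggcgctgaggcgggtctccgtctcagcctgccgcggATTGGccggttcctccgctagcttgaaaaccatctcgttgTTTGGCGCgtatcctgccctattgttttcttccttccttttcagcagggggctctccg
Ncaph (chr2:127133905-127134054, minus strand): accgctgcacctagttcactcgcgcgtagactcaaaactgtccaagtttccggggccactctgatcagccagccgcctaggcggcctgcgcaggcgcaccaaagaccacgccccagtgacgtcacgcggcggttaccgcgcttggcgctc

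The next 3 lines show genes with positive log2 changes that did not pass, as a comparison. They are the 3 with the largest positive change among the genes that have a promoter window, and were chosen after their values were seen.

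Ccnb2 (chr9:70421505-70421654, minus strand): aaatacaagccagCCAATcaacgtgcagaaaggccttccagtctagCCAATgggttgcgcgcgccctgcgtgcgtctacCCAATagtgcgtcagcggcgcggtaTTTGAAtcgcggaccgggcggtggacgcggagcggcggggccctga
Kif2c (chr4:117178723-117178872, minus strand): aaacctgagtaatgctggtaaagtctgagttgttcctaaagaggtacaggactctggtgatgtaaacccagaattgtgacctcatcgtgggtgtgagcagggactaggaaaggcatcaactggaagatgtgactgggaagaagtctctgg
Spc25 (chr2:69206164-69206313, minus strand): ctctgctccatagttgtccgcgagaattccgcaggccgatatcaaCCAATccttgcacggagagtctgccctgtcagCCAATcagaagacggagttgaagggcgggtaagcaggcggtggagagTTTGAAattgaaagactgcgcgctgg

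In Kif15 the CHR, on the opposite strand, directly follows an E2F motif, 19 bases before the start, while the CHR of Bub1b and Cenpa lies 40 and 16 bases after it. Ncapd2 has an E2F motif and a CCAAT box in this stretch and a CHR only further upstream. Ncaph and Kif2c have none of these letters in the stretch. Ccnb2, whose log2 change was 0.39, has a CHR 4 bases after the start and 3 CCAAT boxes before it, and Spc25 a CHR and 2 CCAAT boxes.

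A promoter window of 300 bases, 250 before the start and 50 after it, was held for 36 of the 42 genes, in 39 windows, since 3 genes have 2. A CHR stood in 32 of these windows, or 82.1%, against 19.2% of all 32851 windows. A CCAAT box stood in 30, or 76.9%, against 37.4%, and both together in 28, or 71.8%, against 7.53%. An E2F motif was found in 3 windows, of Ncapd2, Kif15 and Cdk1, or 7.69%, against 0.813% of all. The TATA box (TATAAA), searched as a comparison, was found in 1 window, of Kif2c, or 2.56%, against 13.6%. Matches of different motifs overlapped in 0 cases. These are matches of letters on both strands and not measured sites.

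The motifs were set beside the change on the array. Among measured genes with a window, the 29 with a CHR had a median log2 change of -0.13 and the 6 without one had -0.33. Of the 5 genes that fell, 4 have a CHR in the window and 3 have a CCAAT box.

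**Figure D2:**
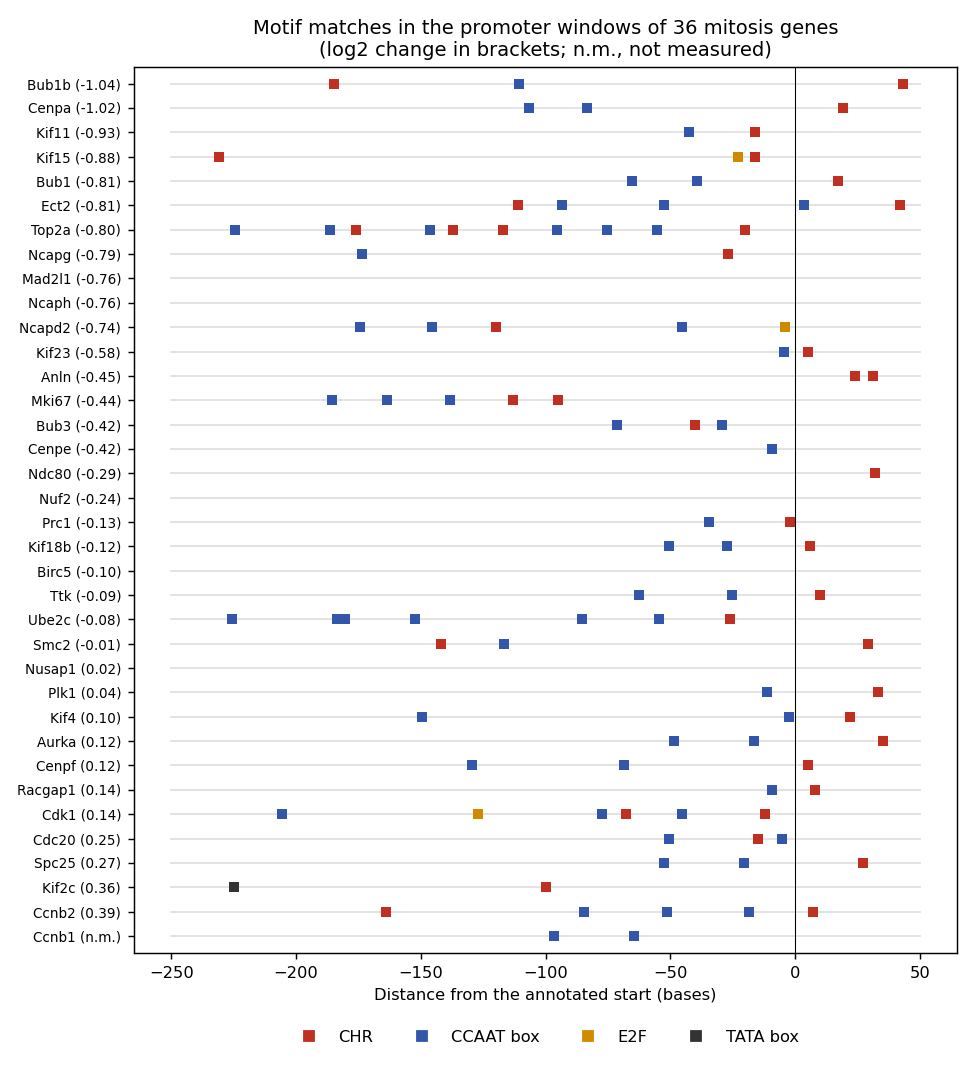
Motif matches in the promoter windows of 36 mitosis genes, by distance from the annotated start in bases (horizontal axis), with genes ordered from the most negative to the most positive log2 change, given in brackets. Red CHR squares and blue CCAAT squares cluster near the start from the top to the bottom of the plot. Over all 39 windows searched for these 36 genes, 29 had a CHR from 100 bases before to 50 after the start. A CCAAT box stood in this stretch in 25 of the 39.

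Of the 3 measured genes for Cdk1 and its cyclins none passed. Other regulators of mitotic entry are given below. Cdk1, the kinase itself, read 5.21, 3.87 and 5.49 in Axin2+/GFP+ samples and 4.54, 4.77 and 4.84 in Axin2-/GFP- samples. Axin2+/GFP+ replicate 2 was thus the lowest of all samples and the other two were the highest, and the log2 change was 0.14 (95% interval -0.71 to 0.997). Ccnb2, a B-type cyclin, read 5.79, 6.90 and 6.29 against 6.05, 5.73 and 6.02, in the order of replicates. Its change of 0.39 (adjusted p = 0.332) passed as higher after cyclic loess alone (adjusted p = 0.0472). Ccna2, the A-type cyclin of S phase and early mitosis, had a log2 change of -0.39 (adjusted p = 0.441).

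The Aurora and Polo kinases gave no difference beyond the spread of the samples. Log2 changes were 0.12 for Aurka, which builds the spindle poles, -0.26 for Aurkb, the kinase of the chromosomal passenger complex, -0.10 for its partner Birc5 (survivin), and 0.05 for Plk1, the Polo kinase. Their adjusted p-values in limma ran from 0.493 to 0.894. The 95% interval for Plk1, from -0.46 to 0.55, leaves out a change of 1 log2 unit in either direction.

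All 5 spindle assembly checkpoint genes had negative log2 changes, with a median of -0.76, and 1 of them, Bub1b, passed. Bub1, the kinase that brings checkpoint proteins to the kinetochore, read 3.18, 2.67 and 3.80 in Axin2+/GFP+ samples and 4.02, 4.20 and 3.87 in Axin2-/GFP- samples. Mad2l1, which binds and blocks Cdc20, read 3.79, 2.98 and 3.73 against 4.21, 4.55 and 4.03. In both genes the groups did not overlap, but the changes of -0.81 (adjusted p = 0.0786) and -0.76 (adjusted p = 0.0750) did not pass. Bub3, the partner of Bub1 and BubR1, had -0.42 (adjusted p = 0.246), and Ttk, the kinase Mps1, had -0.09. Downstream of the checkpoint, Cdc20, the activator of the APC/C, had a log2 change of 0.25 and Ube2c, the ubiquitin-conjugating enzyme that works with it, of -0.08. Ube2c was among the steadiest of the set, at 5.79, 5.65 and 5.72 against 5.79, 5.63 and 5.97, with a 95% interval of -0.46 to 0.31.

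The 7 centromere and kinetochore genes had a median of -0.24, and Cenpa alone passed. The 4 subunits of the Ndc80 complex, which grips microtubules, went different ways. Ndc80 read 4.70, 3.62 and 5.65 in Axin2+/GFP+ samples and 4.96, 4.98 and 4.90 in Axin2-/GFP- samples, a change of -0.29 (adjusted p = 0.640). Nuf2 had -0.24, Spc24 had 0.47 and Spc25 had 0.27. Spc24 had the largest positive change of the set, with values of 3.91, 4.55 and 5.10 against 4.54, 3.85 and 3.75 that overlap (adjusted p = 0.320). Spc25 stood at 2.54 and 2.55 in Axin2+/GFP+ replicates 1 and 2 and at 4.11 in replicate 3, beside 2.67 to 2.94 in Axin2-/GFP- samples. Cenpe, the kinetochore kinesin, had -0.42 and Cenpf, a kinetochore protein of late G2, had 0.12.

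Of the 7 kinesins, Kif15 passed as lower. Kif11 (Eg5), which pushes the spindle poles apart, had a larger change and did not pass. It read 4.18, 3.05 and 5.67 in Axin2+/GFP+ samples and 5.32, 5.12 and 5.26 in Axin2-/GFP- samples, with SDs of 1.32 and 0.10. The log2 change was -0.93 with a 95% interval of -2.15 to 0.29 (adjusted p = 0.249). Kif23, a subunit of the centralspindlin complex, read 4.80, 4.62 and 4.98 against 5.60, 5.18 and 5.34. Its groups did not overlap, and the change of -0.58 (adjusted p = 0.0709) passed after median centring (-0.68) and after receptor centring, which sets the median of the receptor genes equal on all arrays (-0.89). The others did not pass, with log2 changes of -0.12 for Kif18b and 0.36 for Kif2c, which act on microtubule ends, 0.10 for the chromosome motor Kif4 and 0.21 for Kif20a of the central spindle. The spindle proteins Tpx2, which activates Aurora A, Nusap1, which bundles spindle fibres, and Prc1, which bundles them in the midzone, had changes of -0.03, 0.02 and -0.13.

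The 7 genes of condensin, topoisomerase and the chromosome surface all had negative log2 changes, with a median of -0.74, and 2 passed. Top2a, the topoisomerase that untangles chromosomes, was among the brightest mitosis genes. It read 5.89, 5.68 and 6.78 in Axin2+/GFP+ samples and 6.91, 6.87 and 6.96 in Axin2-/GFP- samples, without overlap, a change of -0.80 (adjusted p = 0.0829). A second feature of Top2a averaged 0.82 in Axin2+/GFP+ samples, under the receptor median of 1.75 to 1.83 there, and 2.31 in Axin2-/GFP- samples. It was read only in the setting that averages all features of a gene. There Top2a passed as lower in limma (-1.14, adjusted p = 0.0372). Smc4, a core condensin subunit, read 6.09, 5.73 and 6.29 against 6.49, 6.43 and 6.57, a change of -0.46 (adjusted p = 0.128). Its partner Smc2 had -0.01, with a 95% interval of -0.40 to 0.39, and the condensin I subunit Ncapg had -0.79 (adjusted p = 0.0810). Mki67, whose product Ki67 coats mitotic chromosomes and marks cycling cells, read 5.58, 5.80 and 6.86 against 6.53, 6.10 and 6.91. The change of Mki67 was -0.44, and its 95% interval of -1.22 to 0.35 spans 0 as well as a fall of more than 1 log2 unit.

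Of the 3 cytokinesis genes none passed. Anln, which links the contractile ring to the membrane, had no overlap between the groups and a log2 change of -0.45 (adjusted p = 0.157). Ect2, the exchange factor that switches on RhoA at the midzone, read 3.35, 2.84 and 2.95 against 4.01, 3.28 and 4.29, a change of -0.81 (adjusted p = 0.0781). It passed without Axin2-/GFP- replicate 2 (-1.10, adjusted p = 0.0312). Racgap1, the partner of Kif23 in centralspindlin, had 0.14. Of all 36 mitosis genes that did not pass, 22 had a 95% interval within 1 log2 unit of 0, while in 11 the interval included -1. In 5 of these, Ccna2, Ndc80, Kif11, Prc1 and Mki67, it also included 0, and in the other 6 it lay below 0 although the gene did not pass after adjustment.

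One sample stood apart in the set. Axin2+/GFP+ replicate 3 was the highest of its group in 27 mitosis genes, or 65.9%, against 34.0% of all genes. It exceeded the mean of replicates 1 and 2 by a median of 0.51 log2 units, where the median over all genes was 0.0043. In 5 mitosis genes the excess was over 1 log2 unit, or 12.2% against 1.86% of all genes. These were Kif11 (2.06), Prc1 (1.58), Spc25 (1.57), Ndc80 (1.49) and Mki67 (1.17), on the log2 scale. The mean log2 value of the set over the Axin2+/GFP+ samples was 4.15, 3.99 and 4.58, and over the Axin2-/GFP- samples 4.52, 4.43 and 4.60. Axin2+/GFP+ replicate 3 thus lay within the range of the Axin2-/GFP- samples, and Axin2+/GFP+ replicates 1 and 2 lay below it. Axin2-/GFP- replicate 3 was also the highest of its own group in 20 mitosis genes, and the share of all genes was not counted for that sample.

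**Figure D3:**
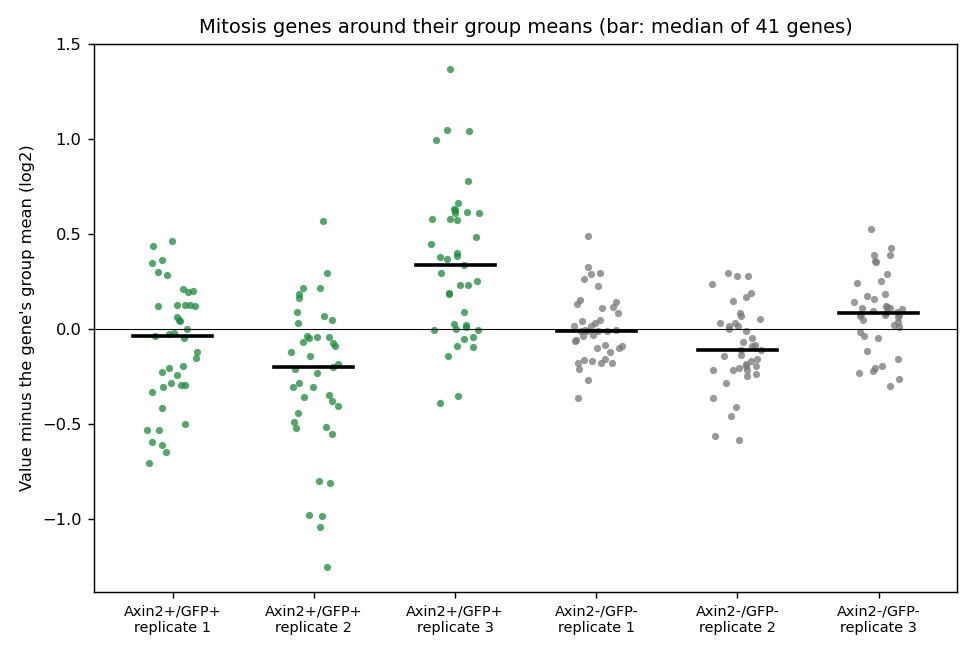
Each mitosis gene's log2 value minus its group mean (vertical axis), with 1 point per gene and sample and a black bar at the median of the 41 genes. The median was 0.34 in Axin2+/GFP+ replicate 3 and -0.20 in replicate 2, while those of the Axin2-/GFP- samples lay between -0.11 and 0.09.

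In 18 mitosis genes, or 43.9%, replicates 1 and 2 were both below every Axin2-/GFP- sample, against 21.5% of all genes, and in 7 of these replicate 3 was not. This pair was picked after replicate 3 was seen to be the highest in these same genes. The choice itself favours a high count, so no conclusion is drawn from the gap to all genes. Without replicate 3 the number called lower was 9, or 22.0%, against 10.4% of all genes in the same fit. That background includes many dim genes, which are seldom called lower. With all 6 samples, the share of all genes was 11.4%, and 25.6% after the filter on dim features. The share among genes of like brightness was not counted without replicate 3. The genes added were Bub1 (-1.11, adjusted p = 0.0181), Kif11 (-1.61, adjusted p = 0.0166), Ncapg (-1.11, adjusted p = 0.00982) and Top2a (-1.13, adjusted p = 0.00783). Leaving out another sample lowered the number, and the share was then below that of all genes. It was 3 without Axin2+/GFP+ replicate 1 or 2, or 7.32% in both cases, against 10.1% and 9.79% of all genes. It was 1 without Axin2-/GFP- replicate 1 or 3, or 2.44%, against 6.90% and 7.04%, and 2 without Axin2-/GFP- replicate 2, or 4.88%, against 7.30%. The larger spread in the GFP+ group was general in the set. In 32 mitosis genes, or 78.0%, the SD was larger in Axin2+/GFP+ samples, against 64.5% of all genes, and the median SD was 0.39 against 0.21 in Axin2-/GFP- samples.

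Other lists are set beside the 34.0% of all genes in which replicate 3 was the highest of its group. It was so in 9 of 13 other regulators of mitotic entry, or 69.2%, with a median excess over replicates 1 and 2 of 0.22. The counts were 10 of 18 genes of cohesin and condensin II, or 55.6% (0.31), and 9 of 17 other spindle and cytokinesis genes, or 52.9% (0.23). Shares nearer to that of all genes were found in the remaining lists of division genes. Among 31 other centromere and kinetochore genes it was so in 12, or 38.7% (0.052), and among 17 APC/C subunits and partners in 6, or 35.3% (-0.11). Among the 36 S phase genes, which serve DNA replication, it was so in 14, or 38.9% (0.17).

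Taken as whole lists, the blood markers had a smaller median excess in replicate 3 than the mitosis genes, and their part in the excess was not tested. Of 15 B-lineage markers 6 were highest there, with a median excess of 0.16, and of 16 neutrophil markers 9, or 56.2%, with 0.15. The mean log2 value of the B-lineage markers was 3.07, 2.90 and 3.06 in Axin2+/GFP+ samples, and that of the neutrophil markers was 7.70, 8.05 and 8.00. Single neutrophil and granulocyte progenitor markers differed from their list. In Axin2+/GFP+ replicates 1, 2 and 3, Elane read 6.24, 6.69 and 7.27 and Cebpe 4.89, 5.45 and 6.58. Mpo read 7.89, 7.90 and 8.14 in these samples, and Ltf 10.01, 9.97 and 10.29.

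The array level of a gene moves with its change in these data, and the mitosis genes are mostly of middling brightness. Their mean log2 values ran from 2.87 to 6.52, and 37 lay above the range of 95% of the olfactory and vomeronasal receptor genes in both groups. Of all genes with a mean of 3 to 5, 20.6% were lower, and 3 of the 26 mitosis genes in this range, which had a median change of -0.25 against -0.19. Of all genes with a mean of 5 to 7, 36.1% were lower, and 2 of the 11 mitosis genes there, with a median of -0.44 against -0.57. Below a mean of 3, 0 of 4 mitosis genes passed, against 1.51% of all genes. In each of these ranges the share of mitosis genes called lower was below that of all genes. Shares by range were counted on the deposited values with all 6 samples, and not under the other scalings or with a sample left out.

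**Figure D4:**
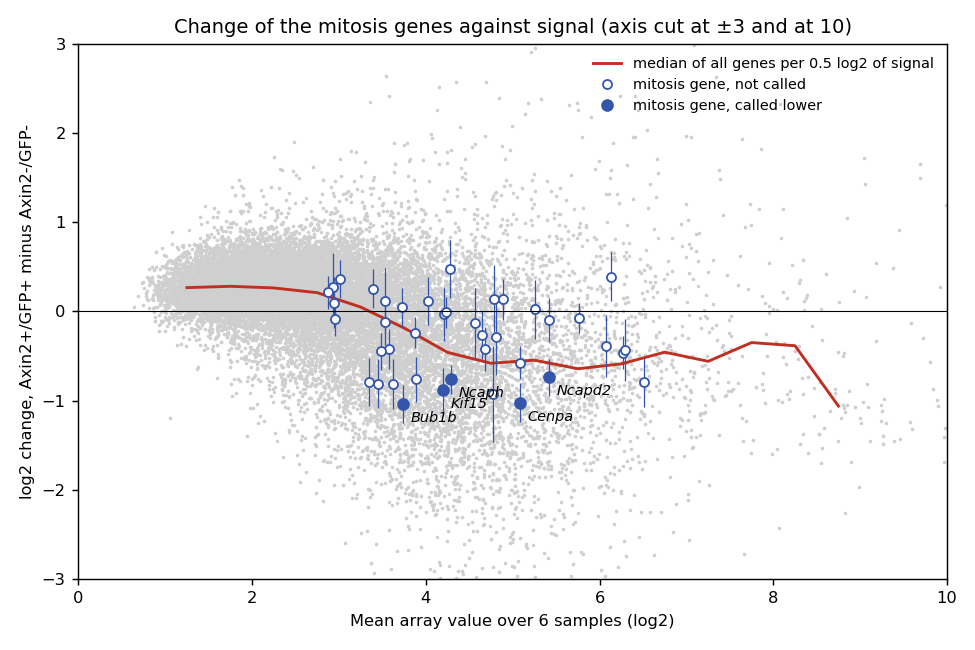
The log2 change between Axin2+/GFP+ and Axin2-/GFP- samples (vertical axis) against the mean log2 value over 6 samples (horizontal axis), with all genes in grey, their running median in red and the mitosis genes in blue with bars of 1 standard error, filled where called lower. The mitosis genes scatter around the red line, with 28 of 41 below 0.

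The wider machinery of division gave calls in 1 direction, here too with 0 genes higher in limma in any of the lists. These counts are to be read against the 11.4% of all genes that were lower and the 4.64% that were higher, and against the rising share of lower genes with brightness given above. Of 13 other regulators of mitotic entry 3 were lower, or 23.1%, namely Lin9, a core MuvB subunit (adjusted p = 0.00371), the phosphatase Cdc25b that activates Cdk1 (-1.34, adjusted p = 0.0158), and the centrosome kinase Nek2 (-0.76, adjusted p = 0.0453). Lin9 averaged 3.39 in Axin2-/GFP- samples and 1.68 in Axin2+/GFP+ samples, under the receptor median there, so the size of its fall has only a bound and is not given. Of 31 other centromere and kinetochore genes 4 were lower, or 12.9%, with the outer kinetochore scaffold Knl1 at -1.25 (adjusted p = 0.0118) and Cenpc1, which binds Cenpa nucleosomes, at -1.04 (adjusted p = 0.0136). Cenpc1 averaged 3.36 in Axin2-/GFP- samples and 2.32 in Axin2+/GFP+ samples. The latter level is not clearly above background, so the size of its fall is uncertain. Of 17 other spindle and cytokinesis genes 3 were lower, or 17.6%, among them Numa1, which anchors the spindle poles (-1.49, adjusted p = 0.0159). The median changes of these 3 lists were -0.28, -0.28 and -0.41.

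The next lists hold genes of complexes that also work outside mitosis, and genes of S phase. Of 17 APC/C subunits and partners 4 were lower, or 23.5%, with a median of -0.54, and Cdc27, a core subunit, changed by -1.69 (adjusted p = 0.000944). Of 18 genes of cohesin and condensin II 7 were lower, or 38.9%, with a median of -0.75. Nipbl, which loads cohesin onto DNA, read 3.31, 4.50 and 3.94 in Axin2+/GFP+ samples and 6.64, 6.35 and 6.62 in Axin2-/GFP- samples, a change of -2.62 (adjusted p = 0.000822). The cohesin ring subunit Smc3 changed by -1.34 (adjusted p = 0.00401). Of the 36 S phase genes 15 were lower, or 41.7%, and the median was -0.69. Pcna, the sliding clamp of DNA polymerase, read 6.87, 6.91 and 7.06 against 8.67, 8.37 and 8.57, a change of -1.59 (adjusted p = 0.000733). Whether these lists differ from the mitosis genes was not tested.

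Of the genes named from these lists, Cdc27 and Pcna passed in every setting tried, while all others lost their call in the methods' t-test. Nipbl lost it in no other setting, and Lin9 in none of the others that tested it. The filter on dim features removed Lin9 and Cenpc1, so neither was tested there. Quantile normalization also ended the calls of Smc3 (-0.79), Knl1 (-0.75), Cdc25b (-0.94), Numa1 (-1.07) and Nek2 (-0.60), and cyclic loess those of Knl1 (-0.77), Cdc25b (-0.93), Numa1 (-1.05) and Nek2 (-0.63). Without Axin2-/GFP- replicate 1 the calls of Cdc25b (-1.37), Numa1 (-1.44) and Nek2 (-0.82) ended, without replicate 2 those of Numa1 (-1.53) and Nek2 (-0.79), and without replicate 3 those of Cenpc1 (-0.94), Numa1 (-1.51) and Nek2 (-0.68). Nek2 also lost its call under limma with a trend and without Axin2+/GFP+ replicate 2 (-0.66) or 3 (-0.66).

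**Figure D5:**
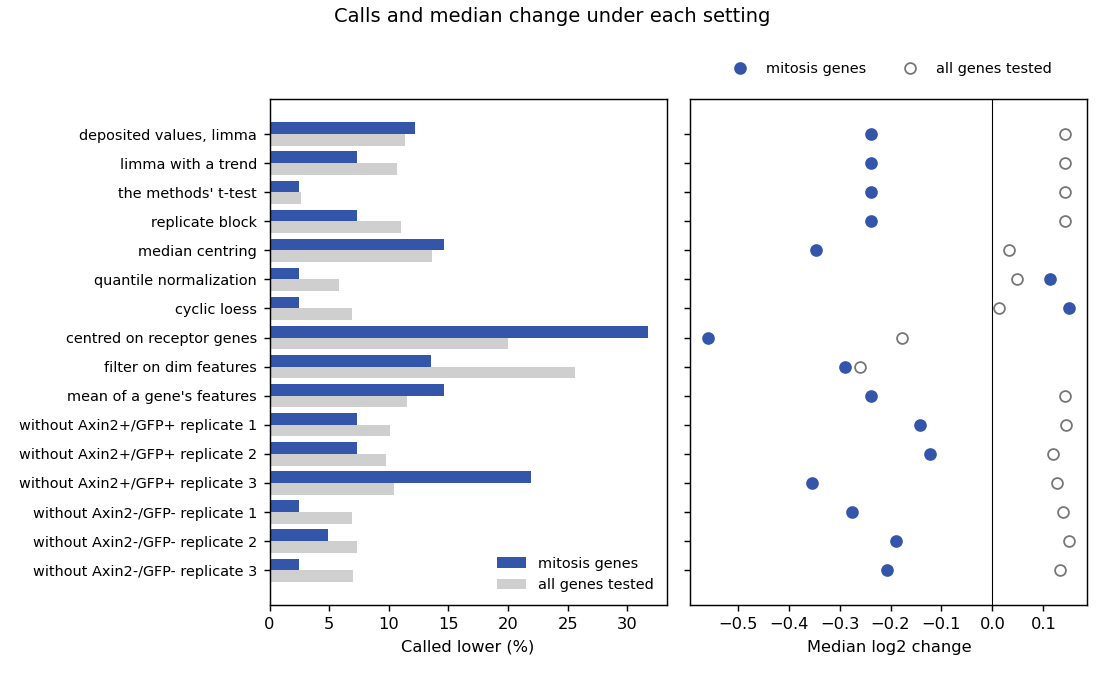
Share of genes called lower in percent (left) and median log2 change (right) for the mitosis genes in blue and all genes tested in grey, with 1 line per setting of the analysis. The share of mitosis genes called lower ranges from 2.44% to 31.7%, and their median lies above 0 only after quantile normalization and cyclic loess.

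Scaling moved the set more than any single sample did. After receptor centring 13 mitosis genes were lower, or 31.7%, against 20.0% of all genes, while after quantile normalization and cyclic loess Bub1b alone was lower, or 2.44%, against 5.84% and 6.89% of all genes. The median change over all genes was 0.14 as deposited, 0.03 after median centring, 0.05 and 0.01 after quantile normalization and cyclic loess, and -0.18 after receptor centring. Relative to that median, the mitosis genes lay lower as deposited and under both centrings, and higher after quantile normalization and cyclic loess. Over all genes the calls were 2265 lower and 926 higher as deposited, 3980 and 210 after receptor centring, and 1165 and 863 after quantile normalization. Axin2, the gene that drives the reporter, changed by 0.55 in limma (unadjusted p = 0.0177, adjusted p = 0.0802), which did not pass. Its log2 means were low, at 2.83 in Axin2+/GFP+ and 2.28 in Axin2-/GFP- samples. Its groups did not overlap, and 23.1% of all genes were likewise higher without overlap. The study, with t-tests, reported Axin2 as higher on the array and by quantitative PCR.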

How the data were processed

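RNA of sorted cells from 3 Axin2+/GFP+ and 3 Axin2-/GFP- pools was hybridised to Affymetrix whole-transcript arrays. The authors deposited log2 values for 35557 features, made with RMA and R 3.2.1 according to the submitters' processing notes. Probe set level and background step were not given in the sources read. The values were used without further scaling, although their upper quartiles, 3.72 to 3.76 and 3.97 to 4.00, differed between groups. Columns were matched to samples by title, with 0 columns unused.

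Gene names came from the platform's probe table, in which 21789 features carry 1 symbol, 1621 several and 12147 none here, and 21698 were matched to RefSeq, with 0 renamed. For 999 genes with several features the brightest was used. All 19938 genes were fitted with limma 3.58.1 (lmFit, then eBayes, all 6 samples; R 4.3.3) with Benjamini-Hochberg adjustment at 0.05, after a check on simulated data. A fold is the larger group mean over the smaller, back on the linear scale. An exact permutation test of 3 against 3 samples cannot go below p = 0.1. The labels call the samples biological replicates, and a p-value reflects the spread among them alone.

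The members and lists were chosen with earlier results of these data known. Every mitosis gene is named, and of each other list at most 4 genes with the smallest p, and Axin2. The alternatives were a variance trend, the methods' t-test, the replicate number as a block, 4 other scalings, averaging all features of a gene, leaving out genes with a mean log2 value under 3, and leaving out each of the 6 samples. Promoter windows were searched with Python 3.11.15. A search of protein sequences for degradation motifs was not run.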

Additional observations from a re-analysis of the deposited data

How the results depend on the processing

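The number of mitosis genes called lower, 5 as deposited, was 3 under limma with a trend, 1 each in the methods' t-test and under quantile normalization and cyclic loess, and 13 after receptor centring, and 1 to 9 with 1 sample left out. The number called higher, 0, was 1 after cyclic loess, and leaving out 1 sample gave 0 each time. The number without overlap and lower, 11, was 4 under both quantile normalization and cyclic loess, 19 after receptor centring and 11 to 18 with 1 sample left out. The number without overlap and higher, 0, was 4 under quantile normalization, 3 under cyclic loess, and 0 to 3 leaving out 1 sample. The median log2 change of the set, -0.24, was 0.11 under quantile normalization, 0.15 under cyclic loess, -0.56 after receptor centring and -0.35 to -0.12 with 1 sample left out. The filter on dim features kept 37 mitosis genes and called 5 lower, or 13.5%, against 25.6% of all genes. Why these values moved was not tested.

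The replicate numbers are shared by both groups. Over all genes, deviations of same-numbered samples correlated at only 0.03, 0.01 and 0.05. Axin2+/GFP+ replicates 1 and 3 correlated best with their own number, and replicate 2 with Axin2-/GFP- replicate 1 (0.017 against 0.011). The numbers were not taken as a pairing. In the mitosis genes replicate 2 was the lowest of its group in 22 genes in both groups. Replicate 3 was the highest in 27 genes in Axin2+/GFP+ samples and in 20 in Axin2-/GFP- samples. Of all genes, 34.0% were highest in Axin2+/GFP+ replicate 3, and the shares of all genes for the other counts were not taken. Whether the samples are paired was not tested. With the replicate number as a block 3 mitosis genes were lower, Bub1b, Cenpa and Ncaph, and of the other named genes Nek2 lost its call.

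Single genes also changed sign, none of them called. Log2 changes turned negative after receptor centring for Cdk1 (-0.18), Aurka (-0.20), Plk1 (-0.27), Cdc20 (-0.065), Cenpf (-0.20), Spc25 (-0.051), Kif4 (-0.22), Kif20a (-0.11), Nusap1 (-0.30) and Racgap1 (-0.18). They did so after median centring for Plk1 (-0.064), Kif4 (-0.012) and Nusap1 (-0.086). After quantile normalization and cyclic loess they turned positive for Ccna2 (0.16, 0.22), Aurkb (0.25, 0.21), Birc5 (0.48, 0.47), Bub3 (0.091, 0.057), Ube2c (0.52, 0.52), Ndc80 (0.21, 0.21), Nuf2 (0.056, 0.019), Tpx2 (0.37, 0.34), Prc1 (0.34, 0.33), Smc2 (0.41, 0.37), Smc4 (0.085, 0.16) and Mki67 (0.11, 0.18). Kif18b turned to 0.038 after quantile normalization and Kif4 to -0.018 under cyclic loess. Leaving out 1 sample, the change crossed 0 for Cdk1 (-0.17 to 0.63), Ccna2 (-0.69 to 0.016), Aurka (-0.16 to 0.38), Aurkb (-0.41 to 0.033), Plk1 (-0.16 to 0.17), Birc5 (-0.33 to 0.14), Ttk (-0.22 to 0.060), Ube2c (-0.16 to 0.012), Cenpf (-0.18 to 0.61), Ndc80 (-0.79 to 0.23), Spc25 (-0.25 to 0.53), Kif18b (-0.32 to 0.056), Kif4 (-0.21 to 0.28), Tpx2 (-0.27 to 0.32), Nusap1 (-0.27 to 0.42), Prc1 (-0.66 to 0.19) and Smc2 (-0.098 to 0.084).

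The number of arrays limits the precision. For Ttk, Kif4, Kif20a and Ncapg over 5% of receptor genes reached the same level in Axin2+/GFP+ samples, so their level there is not clearly above background.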
